A study of Homo sapiens with 58 samples.

Results

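Coding sequence HuR peaks are short stretches of protein-coding RNA at which RNA fragments bound by HuR, an RNA-binding protein that is the product of ELAVL1, piled up after crosslinking. The authors' table gives each peak an annotation class, and the peaks of class CDS were taken after repeated lines for the same position had been dropped. There were 2619 such peaks among 387214 in all, or 0.676% of them, beside 37614 peaks of class 3'UTR and 214982 of class intron.

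HuR is known to bind U-rich and AU-rich stretches, mostly in 3'UTRs and introns, and to move between nucleus and cytoplasm, where it is known for stabilising mRNAs. Coding sequence is the part of an mRNA that ribosomes read, and it is a minor site of HuR contact. Because transcript models of a gene differ, a stretch that is coding in one model can be intronic in another, so a peak of class CDS can come from a mature mRNA or from a precursor. Sodium arsenite arrests translation and gathers mRNAs with stalled initiation into stress granules, whose best known protein is G3BP1.

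All libraries came from Huh-7.5, a human hepatocellular carcinoma line, by CLIP-seq, in which cells are irradiated with UV (here 400 and then 200 mJ/cm2), HuR is immunoprecipitated and the RNA attached to it is sequenced. Stressed cells received 0.5 mM sodium arsenite for 45 min and mock cells did not. The fraction libraries used cells of genotype WT without the APEX reaction, split into a nuclear and a cytoplasmic fraction, with 3 libraries per fraction and treatment. The other libraries used lines with APEX, an ascorbate peroxidase that marks its neighbours with biotin, present as APEX-NLS (nucleus), APEX-NES (cytoplasm) or APEX-G3BP1 (stress granules). These cells, mock and arsenite alike, were given 0.5 mM biotin phenol for 30 min and 1 mM hydrogen peroxide for 1 min. Their enriched libraries had a streptavidin capture beside the HuR immunoprecipitation and their input libraries had none. The NLS and NES lines had 2 input and 4 enriched libraries per treatment, and the G3BP line had 4 mock and 5 arsenite inputs and 6 mock and 7 arsenite enriched libraries. The 1 input per line and treatment of set JL1024 has the word All in place of a replicate number in its description, so it may be a pool; it was counted as 1 library. The labels name no clone, promoter or expression level for the APEX proteins.

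CDS peaks drew 1517 to 4483 tags (sequenced fragments) in each fraction library, 7 to 3710 in the inputs and 4 to 399 in the enriched libraries. The fractions gave 36853 of the 55840 CDS tags, so they carry the tests of single peaks. All fraction libraries belong to one library set (JL0380, the prefix in the sample descriptions) and the lines to 3 others, so a difference between fractions and lines cannot be told apart from the set. Cytoplasmic mock replicate 1 stood apart from replicates 2 and 3, with a chi-square per degree of freedom of 6.64 and 7.07 against 2.87 between those 2. Libraries 1 and 2 of NLS enriched arsenite, 1 and 2 of NES enriched mock, and 3 and 4 of G3BP enriched mock did not differ beyond the sampling noise (chi-square p = 0.547, 0.523 and 0.299) and were counted as 1 sample each in the group means and n. They are shallow, and the comparison ran over 13, 15 and 2 bins of tags, so that a difference could have been missed and the pairs may be separate samples. Tests over enriched libraries were run with each library on its own and with each such pair as 1 sample, and both are given where a difference in CDS share is tested on such pairs. Of 10 hepatocyte markers 8 had a peak of any class, with a summed level of 656 to 2523 CPM (tags per 1000000 of the library total) in the fraction libraries. Of the leukocyte markers only LYZ and PTPRC of 6 had one (2.40 to 21.1 CPM), while 1 of 6 fibroblast and 3 of 5 endothelial markers summed to at most 4.33 CPM. The nuclear RNAs MALAT1, NEAT1, KCNQ1OT1 and MEG3 summed to 3075 CPM in nuclear and 2579 CPM in cytoplasmic mock libraries, and to 3543 and 3167 CPM with arsenite, so both fractions held them. Nothing in the labels says that replicates came from separate cultures, so p-values measure the spread between these libraries.

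The 2619 peaks carried 1714 gene names, and 3 had none. For 1249 genes there was a single CDS peak, and 47 genes had 5 or more. APOB, the structural apolipoprotein of very-low-density and low-density lipoprotein, had the most with 32, followed by AFP, the fetal plasma protein alpha-fetoprotein, with 16. VPS13A, a lipid transfer protein, had 13, and ARHGAP5, an activator of GTP hydrolysis by small GTPases, and fibronectin (FN1) had 12 each. ASPM and STT3B had 11 and PRKDC 10. Of the 1714 genes, 1502 also had a 3'UTR peak and 1585 an intron peak. The median CDS peak held 10 tags over all 58 libraries, against 16 for 3'UTR and 10 for intron peaks, and 50 CDS peaks held at least 100.

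The label string of a CDS peak often named a second feature. An intron label stood on 1749 peaks (66.8%) and none on 870, while 541 also carried a label for the region downstream of a gene and 17 one for a transposable element. RefSeq gene models of the same build (GRCh38.p14) placed 2114 CDS peaks inside the gene they are named for, 100% of them on its strand. Their median position was 55.9% along the gene from its start, against 96.3% for 3'UTR peaks.

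The CDS peak with the most tags lay in AFP at chr4:73436298-73436318 on the plus strand and held 5442 of the 55840 CDS tags. It measured 482, 752 and 597 CPM in the cytoplasmic mock libraries and 199, 225 and 170 CPM in the cytoplasmic arsenite libraries. In the nucleus it measured 198, 223 and 189 CPM in mock and 137, 141 and 142 CPM in arsenite libraries. The 3 cytoplasmic mock libraries were above all other fraction libraries. The peak alone held 17.2% ± 1.72 (SD, n = 3) of the CDS tags of cytoplasmic mock libraries, 7.93% ± 0.985 with arsenite, 9.15% ± 0.694 in nuclear mock and 5.67% ± 0.0859 in nuclear arsenite libraries (n = 3 each).

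The next highest, in RPL23, a protein of the large ribosomal subunit, lay at chr17:38850386-38850406 on the minus strand. It measured 153, 166 and 211 CPM in cytoplasmic mock, 59.2, 90.4 and 88.3 CPM in cytoplasmic arsenite, 4.37, 7.27 and 4.83 CPM in nuclear mock and 15.2, 11.2 and 15.6 CPM in nuclear arsenite libraries. The 4 groups did not overlap. RPL23 has near-identical copies elsewhere in the genome, so its tags are uncertain. The third, in ARHGAP5 at chr14:32092471-32092491 (plus strand), measured 52.1, 61.1 and 73.8 CPM in cytoplasmic mock, 81.6, 77.9 and 99.5 CPM in cytoplasmic arsenite, 4.37, 6.36 and 6.76 CPM in nuclear mock and 31.2, 20 and 26 CPM in nuclear arsenite libraries. In this gene both arsenite groups were above their mock groups and both cytoplasmic groups above the nuclear ones.

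The other high peaks lay in genes for lipid enzymes, membrane, secreted and nuclear proteins, and not all were highest in the cytoplasm. The peak in MSMO1, an enzyme of cholesterol synthesis, measured 39.4, 43.8 and 47.5 CPM in cytoplasmic mock libraries, above the other groups (14.6 to 35.8 CPM). The peak in TMPO, a lamin-binding protein of the nuclear envelope, ranged from 20.2 to 39.0 CPM in cytoplasmic mock and from 5.83 to 14.5 CPM in nuclear mock libraries. The peak in transferrin (TF) measured 22.1 to 31.6 CPM in the 6 cytoplasmic libraries and 6.93 to 14.5 CPM in the 6 nuclear ones. The peak in KDM2A, a histone demethylase, ran the other way, with 13.6 to 31.2 CPM in nuclear and 2.13 to 8.53 CPM in cytoplasmic libraries.

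**Figure D1:**
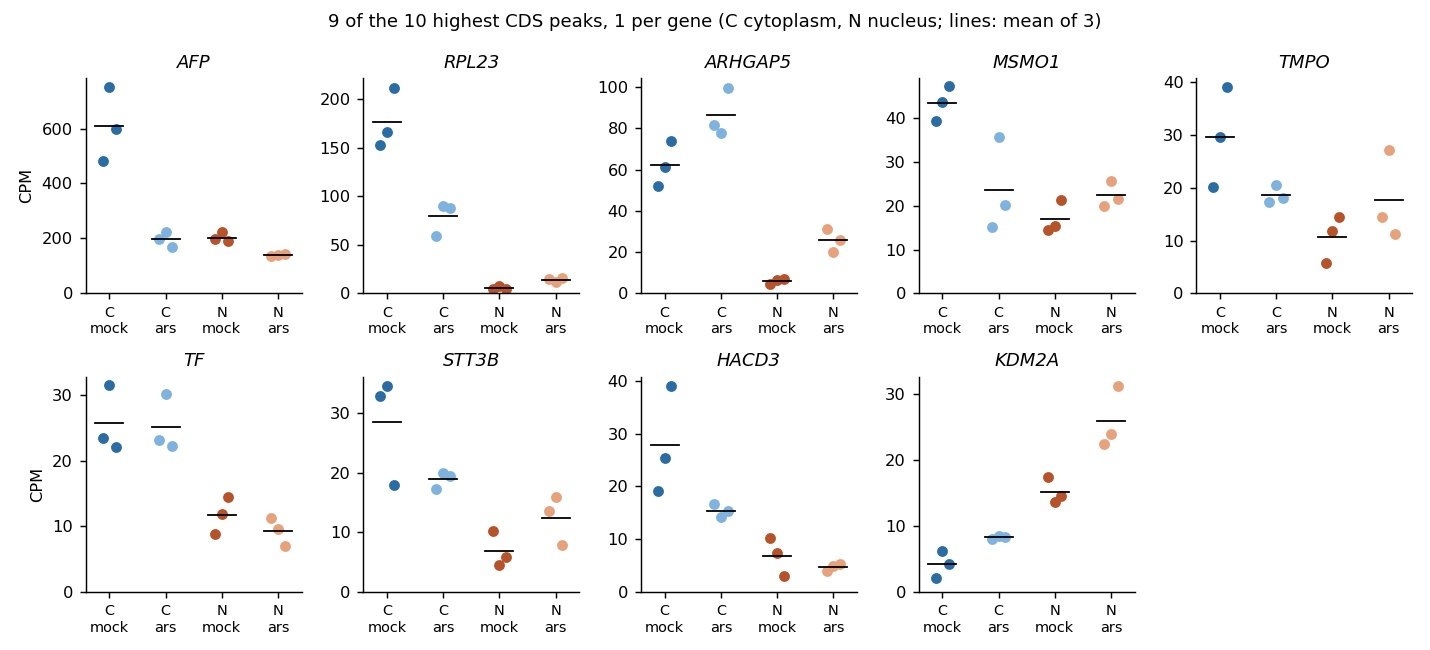
CPM of 9 of the 10 CDS peaks with the highest mean over the 12 fraction libraries, one per gene, each on its own linear axis from 0; each point is a library and each line the mean of 3. AFP, RPL23 and MSMO1 were highest in the cytoplasmic mock libraries, ARHGAP5 in the cytoplasmic and KDM2A in the nuclear arsenite libraries.

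The same 10 peaks were thinly covered in the APEX lines. The AFP peak had a median of 90.1 CPM over 17 inputs (0 to 169, with 2 at 0) and 40.2 CPM over 29 enriched libraries (0 to 361, with 4 at 0). The ARHGAP5 peak had a median of 22.9 CPM in inputs and 13.2 CPM in enriched libraries. RPL23 had a median of 6.79 CPM in inputs and of 0 in enriched libraries, where 19 of 29 had no tag. TF had no tag in 9 of 17 inputs and 24 of 29 enriched libraries, so most of the 10 peaks were not detectable at the depth of a single enriched library.

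Among the fraction libraries, the cytoplasmic mock ones gave the highest percentage of their tags in peaks to CDS, and it was lower there with arsenite. The CDS share was 0.936% ± 0.126 (SD, n = 3) in cytoplasmic mock, 0.671% ± 0.0075 in cytoplasmic arsenite, 0.650% ± 0.0077 in nuclear mock and 0.695% ± 0.0220 in nuclear arsenite libraries (n = 3 each). The nuclear minus cytoplasmic difference was -0.286 percentage points in mock and 0.0243 points with arsenite. The arsenite minus mock difference was -0.265 points in the cytoplasm and 0.0448 points in the nucleus. The groups overlapped only in the nuclear against cytoplasmic arsenite comparison (p = 0.2, adjusted 0.6 over 15 share comparisons, two-sided exact permutation test). In the other 3 the exact permutation p was 0.1, the smallest that 3 against 3 allows (adjusted 0.375). Without the 10 CDS peaks with the most tags the mock difference between fractions was -0.0813 points and the cytoplasmic arsenite difference -0.106 points. The difference between the arsenite effects in nucleus and cytoplasm was 0.310 points (p = 0.005, exact permutation of treatment within fraction over 400 arrangements, the smallest they can give). That permutation tests for no arsenite effect in either fraction, so its p is not an exact test of equal effects.

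Set against 3'UTR tags alone, CDS tags were more frequent in the nucleus. CDS tags made up 2.16% ± 0.080 of CDS and 3'UTR tags in cytoplasmic mock, 2.67% ± 0.101 in cytoplasmic arsenite, 5.26% ± 0.225 in nuclear mock and 3.50% ± 0.292 in nuclear arsenite libraries (SD, n = 3 each). No 2 of the 4 groups overlapped, and the difference between the arsenite effects was -2.27 points (p = 0.005 by the same exact permutation test). The order depended on the intron label, by a setting added after seeing the data. With only the CDS peaks that carry none, the same percentages were 0.742 in cytoplasmic mock, 0.850 in cytoplasmic arsenite, 1.03 in nuclear mock and 0.837 in nuclear arsenite libraries, and the nuclear minus cytoplasmic difference with arsenite was -0.0126 points (exact permutation p = 0.9). Intron-labelled peaks held 66.2%, 68.7%, 81.3% and 76.7% of the CDS tags in these groups, in the same order. CDS peaks without the label summed to 1197 CPM ± 238 in cytoplasmic mock and 415 CPM ± 15.6 in nuclear mock libraries (SD, n = 3 each). In bulk libraries fewer cells with an RNA, less RNA per cell and less HuR on it cannot be told apart.

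**Figure D2:**
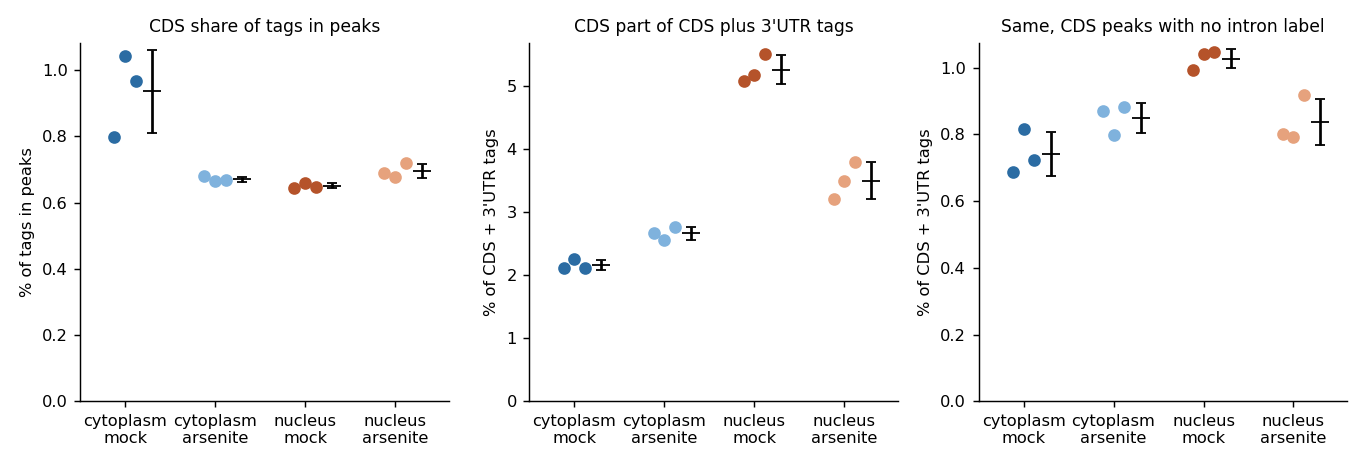
CDS share of tags in peaks (left), CDS part of CDS plus 3'UTR tags (middle) and the same for CDS peaks without an intron label (right), all in percent; points are fraction libraries, with the mean and SD of 3 per group. The left panel is highest in cytoplasmic mock libraries (0.936%) and the middle panel in nuclear mock libraries (5.26%).

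Between the fractions of mock cells, CDS peaks in RPL23, ARHGAP5, AFP, APOB and STT3B were among those higher in the cytoplasm, and peaks in FLVCR1, FUBP1 and TOP2B among those higher in the nucleus. Of 1131 CDS peaks tested with limma, 18 were higher in the nucleus and 33 lower at an adjusted p under 0.05. That is 4.51% of the tested CDS peaks, against 2.82% of all peaks tested (0.53% higher and 2.29% lower), 13.2% of 3'UTR and 0.592% of intron peaks. On the log2 scale used in the test the RPL23 peak differed most, by -4.53 (SE 0.24), 32.2-fold, limma adjusted p = 4.21e-05. Folds are ratios of group means in CPM unless stated. Log2 values are of CPM plus 2.28 and understate the change of low peaks. The ARHGAP5 peak was lower in the nucleus by 10.7-fold (log2 -2.99, SE 0.26, limma adjusted p = 0.00053) and the AFP peak by 3.00-fold (log2 -1.55, SE 0.15, limma adjusted p = 0.00086).

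STT3B, the catalytic subunit of an oligosaccharyltransferase of the endoplasmic reticulum, had 2 peaks that were lower in the nucleus. The one at chr3:31636037-31636057 measured 9.57, 11.2 and 15.8 CPM in cytoplasmic and 0, 0.909 and 0 CPM in nuclear mock libraries (limma adjusted p = 0.00314). The nuclear libraries together had 1 tag there, so the ratio of 34.4 between the pooled tags per library total has a wide counting interval, 5.78 to 1397. The peak in TRAM1, part of the protein translocation site of that membrane, measured 20.2, 16.3 and 11.6 CPM against 2.91, 0.909 and 0.966 CPM (limma adjusted p = 0.00683). The peak in LPAR3, a receptor for lysophosphatidic acid, measured 20.2, 18.3 and 26.4 CPM against 2.91, 4.55 and 1.93 CPM (limma adjusted p = 0.00549). The groups did not overlap in any of these. Peaks named from the tests were mostly chosen for such groups, so here and below a lack of overlap adds nothing to the calls.

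Peaks in APOB and AFP moved the same way along each gene. The APOB peak at chr2:21007722-21007742 measured 25.5, 42.8 and 42.2 CPM in cytoplasmic and 8.74, 4.55 and 5.79 CPM in nuclear mock libraries (log2 -2.17, limma adjusted p = 0.00576). Of 30 APOB peaks tested 5 were called lower in the nucleus and none higher, and 28 had a negative difference. All 16 AFP peaks had a negative difference, with a median of -1.19, and 3 were called. The peaks of a gene share its RNA and are not independent of each other. A second AFP peak, at chr4:73438196-73438216, measured 59.6, 118 and 87.5 CPM in cytoplasmic and 13.1, 22.7 and 15.4 CPM in nuclear mock libraries (limma adjusted p = 0.00419). The HSP90AA1 peak, in the stress-inducible cytosolic chaperone, measured 4.25, 7.13 and 6.33 CPM in cytoplasmic mock and 0 in all 3 nuclear mock libraries, so it was at least 5.55-fold lower against a floor of 3 tags over the group (limma adjusted p = 0.00998). HSP90AA1 has near-identical copies, which makes its tags uncertain.

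Among the 18 peaks higher in the nucleus, that at chr1:212863861-212863881 in FLVCR1, a membrane transporter, measured 7.29, 12.7 and 13.5 CPM in nuclear and 0, 1.02 and 1.05 CPM in cytoplasmic mock libraries (limma adjusted p = 0.00805). The peak in FUBP1, a DNA- and RNA-binding regulator of MYC, measured 4.37, 15.5 and 9.66 CPM against 0, 0 and 1.05 CPM (limma adjusted p = 0.0215). The nuclear groups lay above the cytoplasmic ones in all of these. The peak in TOP2B, a DNA topoisomerase, measured 5.83, 10.0 and 11.6 CPM against 2.13, 0 and 0 CPM (limma adjusted p = 0.0222). The peak in DST, a cytoskeletal linker, measured 10.2, 7.27 and 16.4 CPM against 0, 3.06 and 1.05 CPM (limma adjusted p = 0.0326). A peak in RPL3, another protein of the large ribosomal subunit, had 4.37, 14.5 and 5.79 CPM in nuclear mock and no tag in any of the 6 cytoplasmic libraries (at least 7.88-fold, limma adjusted p = 0.0185). It carries a snoRNA label too, so its tags cannot be told apart from those of that RNA, and RPL3 has near-identical copies.

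These calls depended on the libraries. Without cytoplasmic mock replicates 1, 2 or 3 the 51 calls became 4, 0 and 2, and without nuclear mock replicates 1, 2 or 3 they became 115, 3 and 3. The RPL23 and ARHGAP5 peaks were lost only without cytoplasmic mock replicate 2. With edgeR's quasi-likelihood test 50 CDS peaks were called (2.8% of all peaks tested), 44 of them shared with limma.

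The peaks called higher in the nucleus all carried an intron label, while those called lower lay on both sides of it. Of 775 tested CDS peaks with the label, 18 were higher in nuclear mock libraries and 19 lower, with a median log2 difference of 0.10. Of 356 without it, none was higher and 14 were lower by limma, with a median of -0.41, and 20.5% had a positive difference against 56.8% of those with the label. All 18 nuclear-higher peaks lay in separate genes, whose median span was 113 kb over the 15 that RefSeq placed. The 33 lower peaks lay in 22 genes, of which RefSeq placed 17 (23 peaks), with a median span of 28.0 kb. Over the 688 placed genes with a tested CDS peak the median was 59.0 kb, each gene counted once. Precursor RNA was not measured apart from mRNA, so its part in these values was not tested.

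**Figure D3:**
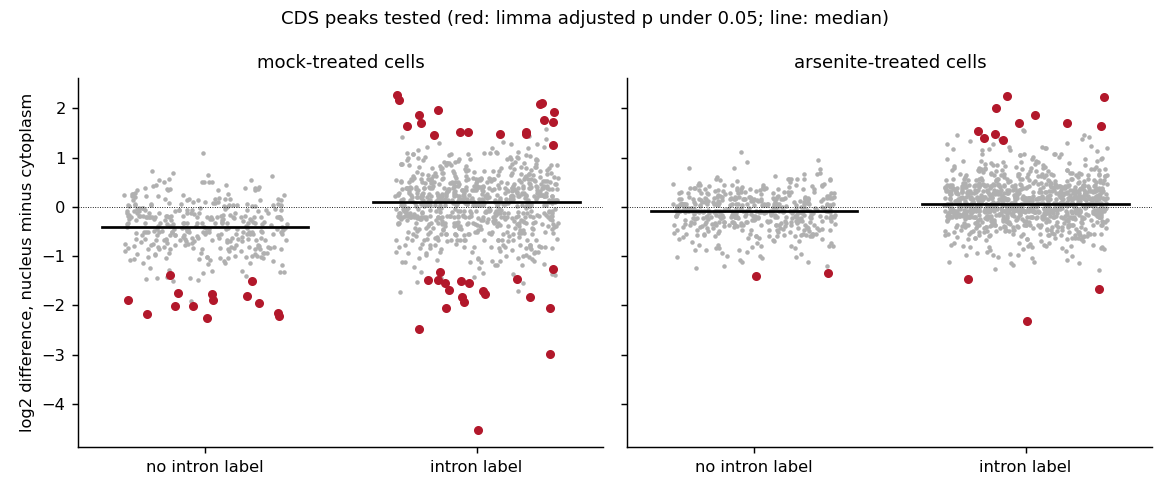
Nuclear minus cytoplasmic log2 difference of each tested CDS peak, by whether its annotation also names an intron, in mock (left) and arsenite (right) cells; red points passed limma's adjusted p of 0.05 and lines mark medians. In mock cells the median was 0.10 with an intron label and -0.41 without, and the 18 peaks called higher in the nucleus all carried one.

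With arsenite, 16 CDS peaks passed the test between the fractions. Of 1526 tested, 11 were higher in the nucleus and 5 lower by limma, or 1.05% against 0.257% of all peaks (0.11% higher and 0.147% lower). Of the 51 mock calls 23.5% were called here too, which is 12 peaks and 75.0% of the 16 arsenite calls, all in the same direction. The RPL23 peak was lower in the nucleus by 5.66-fold (log2 -2.31, limma adjusted p = 0.000167) and the ARHGAP5 peak by 3.35-fold (log2 -1.67, limma adjusted p = 0.000835). The peak in HACD3, an enzyme of very-long-chain fatty acid synthesis, measured 16.6, 14.2 and 15.3 CPM in cytoplasmic and 4.0, 4.8 and 5.2 CPM in nuclear arsenite libraries (limma adjusted p = 0.0462). The FLVCR1 peak at chr1:212863861-212863881 measured 14.4, 22.4 and 26.9 CPM in nuclear and 0.722, 3.41 and 4.17 CPM in cytoplasmic arsenite libraries, 7.66-fold higher (limma adjusted p = 0.00745). The TOP2B peak measured 12.8, 14.4 and 13 CPM against 2.17, 0.57 and 0.696 CPM, 11.7-fold higher (limma adjusted p = 0.00235). The peak in MED13, a subunit of the Mediator complex, measured 8.01, 13.6 and 7.80 CPM against 0.722, 0.57 and 0.696 CPM (limma adjusted p = 0.00623). The nuclear and cytoplasmic groups of these peaks did not overlap. Leaving out any 1 of the 6 libraries gave 0 to 2 calls in place of 16: 1, 0 and 0 without cytoplasmic arsenite replicates 1, 2 and 3, and 2, 1 and 0 without nuclear arsenite replicates 1, 2 and 3. EdgeR called 36 peaks (0.655% of all peaks), 16 of them shared.

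In the cytoplasm, arsenite raised 4 CDS peaks and lowered 11 of 1366 tested by limma, or 1.1% against 0.76% of all peaks (0.24% higher and 0.52% lower) and 2.80% of 3'UTR peaks. The balance depended on the pseudocount: with one 4 times smaller 20 CDS peaks rose and 17 fell, and over all peaks 5162 rose and 1600 fell. The peak at chrX:133704260-133704280 in GPC3, a cell-surface proteoglycan that marks hepatocellular carcinoma, measured 4.25, 7.13 and 1.05 CPM in mock and 23.1, 25.6 and 29.2 CPM in arsenite libraries (6.26-fold, log2 2.25, SE 0.37, limma adjusted p = 0.0262). The peak in LSM14A, an RNA-binding protein of processing bodies, rose from 0, 0 and 2.11 CPM to 7.22, 10.2 and 11.1 CPM (limma adjusted p = 0.0262). The peak in SRSF6, a splicing factor of the SR family, rose from 5.32, 3.06 and 2.11 CPM to 16.6, 17.1 and 14.6 CPM (limma adjusted p = 0.0293). Arsenite libraries were above mock libraries without overlap in each. LSM14A had only 2 tags in the mock group, so its ratio of 13.8 between pooled tags has a counting interval of 3.6 to 117.

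Peaks that fell in the cytoplasm included both of the highest ones. The AFP peak at chr4:73436298-73436318 fell 3.09-fold (log2 -1.60, SE 0.17, limma adjusted p = 0.00462) and the RPL23 peak 2.23-fold (log2 -1.14, limma adjusted p = 0.0409). The peak in ATP13A3, a membrane transporter of the P-type ATPase family, fell from 13.8, 14.3 and 13.7 CPM to 2.17, 2.84 and 1.39 CPM (limma adjusted p = 0.0133). The LPAR3 peak fell from 20.2, 18.3 and 26.4 CPM to 7.22, 6.25 and 4.87 CPM (limma adjusted p = 0.0339). The mock values of ATP13A3 and LPAR3 were all above the arsenite values. A peak in EIF5A, a translation elongation factor with near-identical copies, had 3.19, 3.06 and 4.22 CPM in mock and no tag in arsenite libraries (at least 5.33-fold, limma adjusted p = 0.0484).

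Within 1 gene, peaks could move in opposite directions. In APOB the peak at chr2:21002369-21002389 rose from 4.25, 4.07 and 8.44 CPM to 32.5, 24.4 and 33.4 CPM (5.39-fold, log2 2.07, SE 0.29, limma adjusted p = 0.0138). The peak at chr2:21007722-21007742 fell from 25.5, 42.8 and 42.2 CPM to 4.33, 6.25 and 10.4 CPM (5.26-fold, log2 -2.09, SE 0.32, limma adjusted p = 0.0196), and that at chr2:21006818-21006838 fell 6.38-fold (limma adjusted p = 0.0471). Mock and arsenite libraries did not overlap at any of the 3. Of the 32 APOB peaks 11 had a positive and 21 a negative difference, with a median of -0.24, and the gene's summed CDS level did not pass the test. Of the 16 AFP peaks 13 had a negative difference, with a range of -1.91 to 0.55, and the 3 called ones were the 3 nearest the 5′ end. The middle one of these, at chr4:73437171-73437191, measured 7.45, 12.2 and 9.49 CPM in mock and 1.44, 1.71 and 1.39 CPM in arsenite libraries (limma adjusted p = 0.0277).

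**Figure D4:**
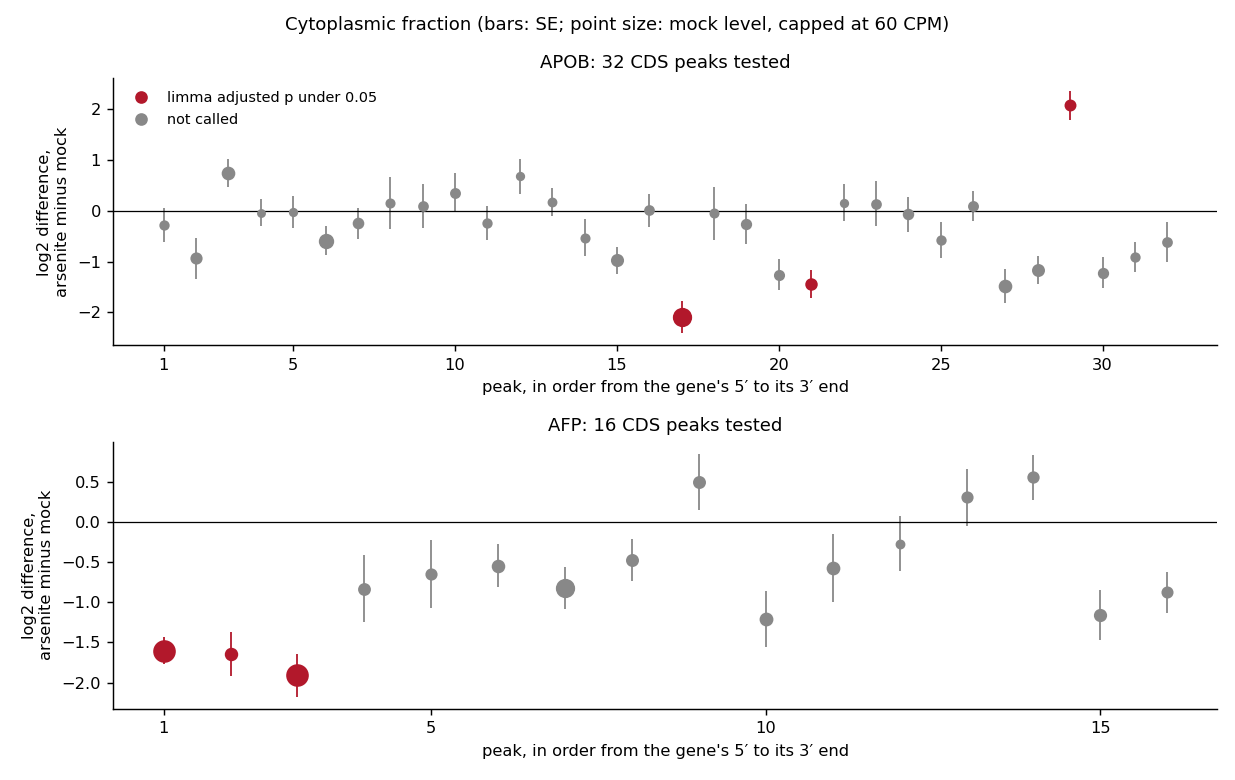
Cytoplasmic arsenite minus mock log2 difference (with SE) of each tested CDS peak in APOB (32) and AFP (16), ordered from 5′ to 3′; red marks limma's adjusted p under 0.05 and point size the mock level. In APOB 1 peak rose and 2 fell, and in AFP the first 3 fell.

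The 15 cytoplasmic calls became 2, 0 and 0 without mock replicates 1, 2 and 3, and 68, 62 and 75 without arsenite replicates 1, 2 and 3. EdgeR called 24 (1.44% of all peaks), of which 15 were shared with limma.

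Mitochondrial coding peaks were lower after arsenite in the cytoplasmic fraction. The 18 CDS peaks on the mitochondrial chromosome summed to 47.5 CPM ± 14.8 in cytoplasmic mock, 6.76 CPM ± 0.236 in cytoplasmic arsenite, 17.5 CPM ± 5.68 in nuclear mock and 9.49 CPM ± 6.66 in nuclear arsenite libraries (SD, n = 3 each). Summed over its CDS peaks, MT-ND4, a subunit of respiratory complex I, measured 11.7, 32.6 and 13.7 CPM in cytoplasmic mock and 2.17, 2.84 and 2.78 CPM in cytoplasmic arsenite libraries (7.45-fold, limma adjusted p = 0.00099). MT-ATP6, a subunit of ATP synthase, measured 18.1, 18.3 and 7.38 CPM against 0.722, 2.27 and 2.78 CPM (7.58-fold, limma adjusted p = 0.00195). Of 6 mitochondrial genes tested 4 fell (these 2, MT-CO3 and MT-ND3) and none rose, beside 2.95% of all CDS sums that fell and 1.47% that rose. MT-CO3 rests on 5 tags in mock and 0 in arsenite libraries, and MT-ND3 on 12 and 2. Between mock fractions MT-ATP6, MT-ND3 and MT-ND4 of 7 tested were lower in the nucleus and none was higher (median log2 difference -0.58). Over all CDS sums 8.65% were lower and 6.18% higher there. None of 4 passed between arsenite fractions, and none of 5 with arsenite in the nucleus. All 65 peaks of any class on that chromosome summed to 1134 CPM ± 208 in cytoplasmic mock and 425 CPM ± 81.5 in cytoplasmic arsenite libraries (SD, n = 3 each). How many mitochondria each fraction retained was not measured, so its part was not tested.

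In the nucleus 1 CDS peak rose and 1 fell with arsenite of 1274 tested by limma (0.157%, against 0.186% of all peaks, 0.152% higher and 0.034% lower). The ARHGAP5 peak at chr14:32092471-32092491 rose 4.41-fold (log2 1.78, SE 0.27, limma adjusted p = 0.0236). Its mock and arsenite libraries did not overlap, yet the call was lost without any 1 of the 6 libraries. Leaving out nuclear mock replicates 1, 2 and 3 gave 0, 1 and 1 calls, and leaving out nuclear arsenite replicates 1, 2 and 3 gave 0, 0 and 81. All 9 ARHGAP5 peaks tested here had a positive difference, with a median of 0.50.

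The arsenite effect itself differed between the fractions at 5 of 2320 CDS peaks tested (0.216%, against 0.352% of all peaks, 0.318% higher and 0.0344% lower), each with a larger nuclear minus cytoplasmic difference after arsenite. They were the RPL23 peak (log2 2.22, SE 0.35, limma adjusted p = 6.11e-06), the HSP90AA1 peak (2.63, SE 0.50, limma adjusted p = 0.000534), the AFP peak at chr4:73436298-73436318 (1.07, limma adjusted p = 3.39e-20), a second FLVCR1 peak at chr1:212887925-212887945 (1.93, limma adjusted p = 0.0295) and an APOB peak at chr2:21007166-21007186 (1.77, limma adjusted p = 0.0328). HSP90AA1 fell in the cytoplasm from 4.25, 7.13 and 6.33 CPM to 1.44, 1.71 and 1.39 CPM and in the nucleus went from 0 in all 3 libraries to 7.21, 2.40 and 4.33 CPM, so that the fractions changed places. With edgeR the RPL23 and HSP90AA1 peaks passed (adjusted p = 0.000321 and 0.000415) and the AFP, FLVCR1 and APOB peaks did not (adjusted p = 0.133, 0.138 and 0.17). The AFP, RPL23 and HSP90AA1 calls were kept without any 1 library. The count was 6 without cytoplasmic mock replicate 1, 4 without nuclear mock replicate 3 and 3 without any other library.

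Summing the CDS peaks of each gene gave more calls. Of 890 genes tested between the mock fractions, 55 were higher and 77 lower in the nucleus by limma (14.8%, against 29.0% of all sums of 1 gene and 1 class, 12.8% higher and 16.2% lower, and 50.1% of 3'UTR sums). APOB summed to 122, 209 and 187 CPM in cytoplasmic and 36.4, 40.0 and 29.9 CPM in nuclear mock libraries (4.87-fold lower, limma adjusted p = 3.43e-06). STT3B summed to 55.3, 65.2 and 56.9 CPM against 16, 9.09 and 9.66 CPM (5.10-fold lower, limma adjusted p = 1.15e-05). Both genes had no overlap between fractions. ARHGAP5 summed to 90.4, 101 and 133 CPM against 11.7, 10.0 and 14.5 CPM (8.97-fold lower, limma adjusted p = 3.68e-07). Among the largest positive differences were those of FUBP1, RPL3, MBTPS1 (a Golgi protease that activates sterol regulators), ZMYM4, DST, GIGYF2 (a repressor of translation) and ZNF638. GIGYF2 summed to 10.2, 6.36 and 5.79 CPM in nuclear and 1.06, 0 and 1.05 CPM in cytoplasmic mock libraries (limma adjusted p = 0.00382). The 132 calls became 68 without cytoplasmic mock replicate 3 and 64, 73 and 72 without nuclear mock replicates 1, 2 and 3.

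With arsenite, 34 genes were higher and 16 lower in the nucleus of 1128 tested (4.43%, against 4.99% of all sums, 1.62% higher and 3.38% lower). FLVCR1 was 7.70-fold higher (log2 2.30, limma adjusted p = 1.4e-06). TF measured 23.1, 30.1 and 22.3 CPM in cytoplasmic and 11.2, 9.60 and 6.93 CPM in nuclear arsenite libraries (log2 -1.26, limma adjusted p = 0.000804), with no overlap. The count fell to 19, 6 and 20 without cytoplasmic arsenite replicates 1, 2 and 3, and to 25 and 4 without nuclear arsenite replicates 2 and 3. Arsenite in the cytoplasm raised 15 and lowered 30 of 1018 genes (4.42%, against 13.3% of all sums, 6.7% higher and 6.62% lower). GPC3 was among those that rose (4.69-fold, limma adjusted p = 0.000193) while its 3'UTR sum averaged 911 CPM in mock and 494 CPM in arsenite libraries. The 45 calls became 15 and 16 without cytoplasmic mock replicates 2 and 3 and 9, 3 and 10 without cytoplasmic arsenite replicates 1, 2 and 3. Arsenite in the nucleus raised 10 and lowered 6 of 978 genes (1.64%, against 6.13% of all sums, 4.48% higher and 1.65% lower). ARHGAP5 rose 3.83-fold (limma adjusted p = 0.000317), and AFP went from 270, 291 and 234 CPM to 190, 189 and 189 CPM (log2 -0.47, limma adjusted p = 0.00711). Those 16 calls became 2, 8 and 8 without nuclear mock replicates 1, 2 and 3 and 2, 3 and 0 without nuclear arsenite replicates 1, 2 and 3.

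Gene lists of the cell's main protein classes were followed through their CDS sums. A gene tested was one with tags in at least 3 of the 6 libraries, so a list's tested members are not all its members. The counts stand beside those over all CDS sums: 6.18% were called higher and 8.65% lower in mock nuclei, 3.01% higher and 1.42% lower in arsenite nuclei, 1.47% rose and 2.95% fell with arsenite in the cytoplasm, and 1.02% rose and 0.613% fell in the nucleus. Of 40 secreted liver proteins 17 had CDS peaks (92 in all) and 12 were tested between mock fractions. AFP, ALB, APOB, FGB, FGG, ITIH2 and TF were lower in the nucleus by limma and none was higher, with a median log2 difference of -1.02 against -0.03 over all CDS sums. ALB, serum albumin, measured 18.1, 18.3 and 27.4 CPM in cytoplasmic and 7.29, 6.36 and 12.6 CPM in nuclear mock libraries (2.44-fold, limma adjusted p = 0.011). ITIH2, a hyaluronan-binding plasma protein, measured 9.57, 11.2 and 13.7 CPM against 2.91, 2.73 and 1.93 CPM (4.55-fold, limma adjusted p = 0.00286). In both genes the cytoplasmic libraries were all higher. With arsenite AFP, ALB, APOB and TF of 14 tested were lower in the nucleus. In the cytoplasm AFP alone of 14 changed with arsenite. In the nucleus AFP fell and APOB rose, of 11 tested. The APOB sum went from 36.4, 40.0 and 29.9 CPM in nuclear mock to 67.3, 56.0 and 50.2 CPM in nuclear arsenite libraries (1.63-fold, log2 0.67, limma adjusted p = 0.0282), with no overlap. Its call held under 7 of 12 alternatives, whose adjusted p ranged from 0.0119 to 0.179.

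Of 81 cytosolic ribosomal proteins 22 had CDS peaks, and their sums went both ways between mock fractions. RPL3 and RPS19 of 16 tested were higher in the nucleus, those lower included RPL23, RPS27A and RPS4X, and the median was -0.01. In the cytoplasm arsenite lowered RPL23, RPL24, RPS12 and RPS27A of 14 tested and raised none, with a median of -0.26 against -0.03. RPS12 fell from 8.51, 3.06 and 7.38 CPM to 0.722, 0 and 0.696 CPM (limma adjusted p = 0.00998), and its groups did not overlap. In the nucleus RPL23 rose and RPS12 fell with arsenite, of 10 tested, and with arsenite RPL3 was higher and RPL23 lower in the nucleus, of 13 tested. Ribosomal protein genes have many near-identical copies, which makes these sums uncertain. Of 39 translation factors 12 had CDS peaks. Between mock fractions EIF3L was higher and EEF1A1, EIF5B and TPT1 lower in the nucleus of 8 tested, and EIF5A alone of 8 fell with arsenite in the cytoplasm. None of the translation factors passed limma in the other 2 comparisons.

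Of 30 chaperones 12 had CDS peaks, and HSP90AA1 and PDIA4 of 8 tested were lower in mock nuclei. HSP90AA1 alone changed with arsenite, falling in the cytoplasm (1 of 9 tested) and rising in the nucleus (1 of 7 tested). Of 35 hnRNP and SR proteins 14 had CDS peaks. HNRNPA2B1 and SFPQ of 9 tested, both nuclear RNA-binding proteins, were lower in mock nuclei. SFPQ measured 3.19, 4.07 and 2.11 CPM in cytoplasmic and 0, 0 and 0.966 CPM in nuclear mock libraries (limma adjusted p = 0.0266), with no overlap. Arsenite raised SRSF6 and lowered HNRNPA2B1 in the cytoplasm, of 12 tested, and in arsenite cells SRSF11 was higher and SRSF6 lower in the nucleus, of 10 tested. Of 32 cytoskeletal genes 10 had CDS peaks, with PFN1 and TUBB of 5 tested lower in mock nuclei, PFN1 of 6 tested lower in arsenite nuclei and PFN1 of 5 raised by arsenite in the cytoplasm.

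Of 30 genes for stress granule proteins 11 had CDS peaks. UBAP2L was higher in arsenite nuclei (1 of 8 tested), and none of 7 in the cytoplasm or 6 in the nucleus changed with arsenite by limma. Of 36 stress-induced genes only TXNRD1, MCL1 and PPP1R15A had CDS peaks, 6 in all, and none of the 3 passed limma in any of the 4 comparisons. TXNRD1, a reductase of the thioredoxin system, measured 1.46, 2.73 and 0.966 CPM in nuclear mock and 4.80, 2.40 and 4.33 CPM in nuclear arsenite libraries (limma adjusted p = 0.371). Of 29 sterol and lipid synthesis genes 9 had CDS peaks, and FADS1, a fatty acid desaturase, rose in the nucleus with arsenite (1 of 5 tested, limma adjusted p = 0.0347). Of 59 histone genes 4 had CDS peaks and none passed limma. Of 18 glycolysis genes only LDHA had one, and it did not pass.

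Within a gene, the CDS sum was compared with the 3'UTR sum of the same gene. The ratio was higher in the nucleus than in the cytoplasm of mock cells for 369 of 735 genes and lower for 10 by limma, 51.6% of the genes tested (50.2% and 1.36%), with a median log2 difference of 1.08. With arsenite 109 of 967 were higher and 11 lower (12.4% in all, 11.3% and 1.14% each way, median 0.26). Arsenite raised the ratio in the cytoplasm for 163 of 880 genes and lowered it for 5 (19.1% in all, 18.5% and 0.568% each way, median 0.41), and in the nucleus it raised 14 and lowered 89 of 800 (12.9% in all, 1.75% and 11.1% each way, median -0.39). These counts rest on genes with few CDS tags. With edgeR on the tags themselves they were 109, 47, 21 and 0, and of the 18, 18, 19 and 17 genes with a mean CDS sum of 10 CPM or more 10, 7, 5 and 2 were called. Among these well-covered genes the calls went both ways: 6 higher and 4 lower between mock fractions (median 0.27), 4 and 3 with arsenite, 3 and 2 for arsenite in the cytoplasm, and 1 and 1 in the nucleus. In the mock comparison 3'UTR sums had themselves moved, with 3006 lower in the nucleus and 44 higher by limma. Without cytoplasmic arsenite replicate 2 the 120 arsenite calls became 73, and without replicate 3 of that group the 168 cytoplasmic calls became 109. The 103 nuclear calls became 55 and 35 without nuclear mock replicates 2 and 3 and 67, 0 and 0 without nuclear arsenite replicates 1, 2 and 3.

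Of the 40 named ratio results 18 kept their call with edgeR and 22 lost it. The genes given below passed both tests, all with a higher ratio. Named ratios that were lower are not described. The GPC3 ratio rose in the cytoplasm with arsenite by 2.76 on the log2 scale (limma adjusted p = 4.74e-05, edgeR adjusted p = 1.04e-05). The LSM14A ratio rose by 3.01 (limma adjusted p = 2.48e-05, edgeR adjusted p = 0.000166), with 3'UTR sums averaging 161 CPM in mock and 80.3 CPM in arsenite libraries. The ALB ratio rose by 1.90 (limma adjusted p = 0.000738, edgeR adjusted p = 0.000529): its 3'UTR sum averaged 385 CPM in mock and 87.7 CPM in arsenite libraries while its CDS sum measured 18.1 to 27.4 and 16.7 to 20.2 CPM. The MED13 ratio was higher in the nucleus of mock cells by 2.71 (limma adjusted p = 3.37e-06, edgeR adjusted p = 8.35e-07) and of arsenite cells by 2.17 (limma adjusted p = 3.59e-05, edgeR adjusted p = 5.73e-06).

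Of 125 CDS peaks tested between arsenite and mock input libraries, with line and library set together as a covariate, none passed limma (0.0% of all peaks tested). Of them 11 had an unadjusted p under 0.05, or 8.80% against 8.43% of all peaks. EdgeR called 5, or 4.0% against 2.76% of all peaks. The APOB peak at chr2:21002369-21002389, which rose in the cytoplasmic fraction, had 50 tags in the 9 arsenite and 1 in the 8 mock inputs (median 4.95 and 0 CPM, edgeR adjusted p = 0.0010, limma adjusted p = 0.576). MSMO1 had 200 and 30 tags (median 15.7 and 2.78 CPM, edgeR adjusted p = 0.0045), TMED2 43 and 3 (edgeR adjusted p = 0.0203) and an ARHGAP5 peak at chr14:32093730-32093750 38 and 11 (edgeR adjusted p = 0.0414). The RPL3 peak had 30 and 101 tags (edgeR adjusted p = 0.0312). The first 4 rose and RPL3 fell. The limma adjusted p of each was 0.576, so these peaks passed edgeR alone.

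The enriched libraries held too few CDS tags for single peaks. Of 7 CDS peaks tested between NLS and NES enriched mock libraries, 8 with arsenite, and 8 between G3BP and NES enriched arsenite libraries, none passed limma (0.0%, 0.0% and 0.491% of all peaks passed) and none passed edgeR. With indistinguishable pairs as 1 sample none passed limma either. Unadjusted limma p-values under 0.05 numbered 2, 0 and 2, beside 13.6%, 10.4% and 21.1% of all peaks tested. FLVCR1 at chr1:212863861-212863881 had 6 tags in the NLS and 0 in the NES mock libraries (mean 6.88 and 0 CPM, limma adjusted p = 0.0803). A MT-ATP6 peak had 8 and 0 tags (mean 7.87 and 0 CPM, limma adjusted p = 0.0803). Both passed the filter only through the NLS libraries. In a NES enriched mock library 1 tag came to 8.74 to 26.4 CPM, above these NLS means, so the 0 cannot show a difference. The AFP peak at chr4:73436298-73436318 measured 166 CPM on average in G3BP and 85.2 CPM in NES enriched arsenite libraries (limma adjusted p = 0.178).

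CDS shares of the enriched libraries ran beyond those of the fractions, which spanned 0.644% to 1.04%. The 8 NLS enriched libraries lay below all of these (0.428% to 0.611%), as did the NES and G3BP enriched libraries (0.318% to 0.557%) and the 6 inputs (0.358% to 0.635%) of set JL1024. The 4 NES and G3BP enriched arsenite libraries of set JL0388 lay above all fraction libraries (1.09% to 1.46%). Inputs averaged 0.622% ± 0.0270 (SD, n = 2) for NLS mock, 0.649% ± 0.0192 for NES mock (n = 2) and 0.613% ± 0.0654 for G3BP mock (n = 4). With arsenite they averaged 0.678% ± 0.125 for NLS (n = 2), 0.678% ± 0.194 for NES (n = 2) and 0.713% ± 0.234 for G3BP (n = 5). NLS enriched libraries had 0.506% ± 0.0768 (n = 4) in mock and 0.522% ± 0.0160 (n = 3) with arsenite. NES enriched libraries had 0.498% ± 0.215 (n = 3) and 0.832% ± 0.490 (n = 4), and G3BP enriched libraries 0.635% ± 0.158 (n = 5) and 0.816% ± 0.422 (n = 7). None of the 11 comparisons among lines passed the adjustment over 15. The smallest p was for NLS enriched minus NLS input, -0.137 points over 7 and 4 samples (p = 0.00909, adjusted 0.136, two-sided exact permutation test). With each of the 8 enriched libraries on its own it was -0.135 points (p = 0.00606, adjusted 0.0909, the same exact permutation test), with -0.167 points within set JL0388 and -0.103 within JL1024. The permutations ran across library sets. Within either set the NLS enriched and input libraries did not overlap, 4 against 2 in each.

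The NES and G3BP enriched arsenite libraries of set JL0388 stood above those of the other sets. In JL0388 the mean share was 1.24% in NES and 1.42% in G3BP enriched arsenite libraries, and in JL1024 it was 0.429% and 0.494%. The JL0361 libraries of the G3BP line averaged 0.628% (0.503% to 0.730%) and overlapped those of JL1024 (0.465% and 0.523%). NLS enriched arsenite libraries averaged 0.525% in JL0388 and 0.521% in JL1024. The arsenite minus mock difference in G3BP enriched libraries was 0.181 points over 7 and 5 samples (exact permutation p = 0.408). With each library on its own it was 0.148 points (exact permutation p = 0.441), 0.586 within JL0388, -0.0336 within JL0361 and -0.0152 within JL1024. In NES enriched libraries it was 0.334 points over 4 and 3 samples (exact permutation p = 0.343). With each library on its own it was 0.274 points (exact permutation p = 0.286), 0.499 within JL0388 and 0.0501 within JL1024. In inputs it was 0.0730 points (permutation p = 0.312), 0.177 within JL0361, 0.128 within JL0388 and -0.0893 within JL1024. With arsenite, the NES and G3BP means lay further apart between JL0388 and JL1024 than mock and arsenite libraries did within either set, and the difference between sets was not tested.

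**Figure D5:**
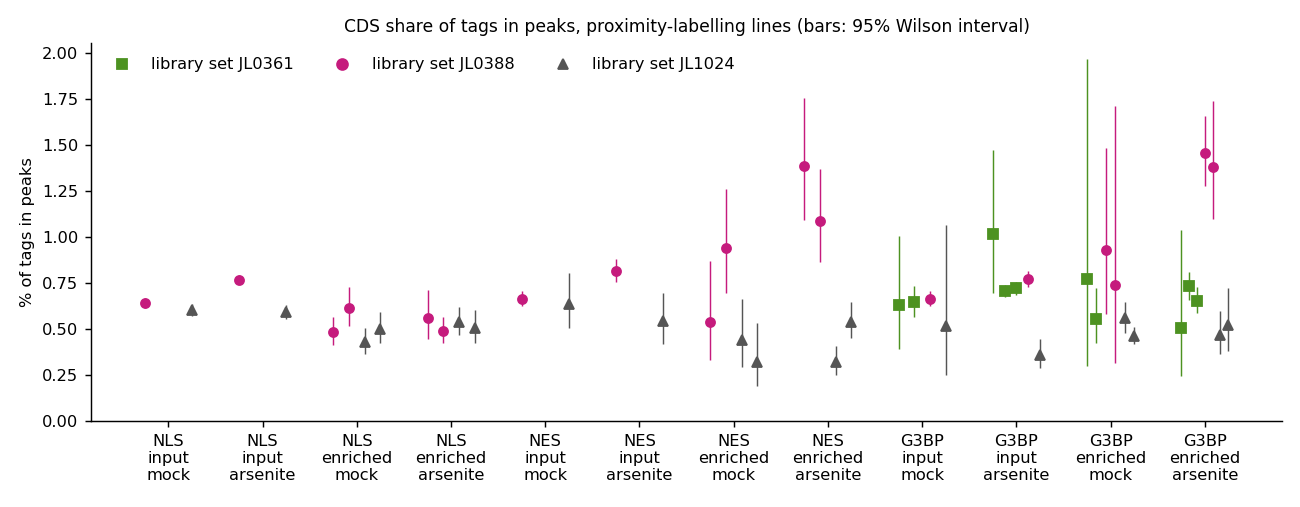
CDS share of tags in peaks (percent) for each input and enriched library, coloured by library set, with 95% Wilson intervals that cover counting error only. The 4 highest libraries are the JL0388 enriched arsenite libraries of NES (mean 1.24%) and G3BP (mean 1.42%), where the intervals are wide.

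CDS tags as a part of CDS and 3'UTR tags were highest in the NLS line among the enriched libraries: 4.84% ± 0.545 (n = 4) in mock and 3.58% ± 0.401 (n = 3) with arsenite. NES enriched libraries had 2.88% ± 1.56 (n = 3) and 2.91% ± 0.366 (n = 4), and G3BP enriched libraries 2.33% ± 0.541 (n = 5) and 1.76% ± 0.481 (n = 7). The NLS mock libraries, at 4.38% to 5.60%, were above every G3BP enriched library but overlapped the NES mock libraries, which reached 4.68%. No test was run on these percentages among the lines.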

How the data were processed

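HuR CLIP-seq was analysed in 58 libraries of 16 groups, taken from the sample titles. The authors deposited 1 table of peak signal with a column for every library. Judged from the values, each is a tag number divided by a library total, since 100% of them came out whole (tolerance 0.05). Per the submitters' processing notes, Bowtie2, SAMtools, bedtools and HOMER and the build GRCh38.p14 were used; their versions and roles, the peak caller, duplicate removal and the handling of reads with several matches are not given in the sources used here. Tags of duplicated molecules are therefore not known to be independent, and intervals and floors (3 tags) cover counting error only. The table had 395471 lines, of which 8257 repeated a peak and were dropped. Peaks are 20 nt long, and coordinates are as the table gives them, with a count from 0 or 1 not stated. Classes and gene names are the table's. No sequence of the peaks is printed because the genome was not used here.

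Values are in CPM. Peaks, CDS sums per gene and the log2 ratio of CDS to 3'UTR sums were tested with limma 3.58.1 in R 4.3.3 (lmFit, then eBayes with trend) on log2(CPM + 2.28), two-sided, with Benjamini-Hochberg adjustment at 0.05 over all peaks, all sums of 1 gene and 1 class, or all ratios. Tested peaks and sums were above 0 in a number of libraries no lower than the size of the smaller group. EdgeR (version 4.0.16, quasi-likelihood) on the recovered tags was an alternative. Differences in mean share were tested by exact permutation (two-sided) over all libraries, and again with indistinguishable pairs as 1 sample, adjusted over 15 comparisons (4 for the CDS part of CDS and 3'UTR tags). The scripts were checked on simulated data with large changes planted in well-covered features of the mock fraction comparison only. That check does not cover peaks with few tags. Positions along genes came from RefSeq models of GRCh38.p14. Tables were handled in Python 3.11.15 with pandas 2.3.3 and numpy 2.4.6. Exact tests used scipy 1.17.1, adjustment used statsmodels 0.14.6 and plots matplotlib 3.10.9.

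The members, gene lists and rules were chosen with earlier results of these data known. Named peaks are, per fraction test, the 6 largest positive and 6 largest negative called CDS peaks whose groups do not overlap, 1 per gene, with the 10 highest CDS peaks; for gene sums the 8 largest each way, for ratios the 5 largest each way, per gene list the 4 members with the highest CDS level, and called peaks of the lines. The text describes some of these and gives the rest as counts; other peaks of APOB, AFP, ARHGAP5, STT3B and FLVCR1, and list members named only because they passed, were chosen after their values were seen. Some results that the rule names are not reported here. Replicate numbers were checked for pairing: deviations of same-numbered libraries from their group means correlated between -0.0133 and 0.0107 in the fraction tests. In the enriched tests they correlated between -0.0416 and 0.0965, and in the input test between 0.117 and 0.140. Most peaks hold few tags, so counting noise alone can keep such values near 0, and pairing was not excluded. The main fraction tests did not pair libraries. Depth was 235471 to 673322 tags in peaks for fractions, 1353 to 484305 for inputs and 519 to 86419 for enriched libraries.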

Additional observations from a re-analysis of the deposited data

Results flagged for a closer look

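The arsenite effect differed between the nuclear and the cytoplasmic fraction in 7 results. Single peaks were tested for that difference with limma. For the shares treatment was permuted within fractions, which tests for no effect in either fraction and not for equal effects. The CDS share of tags in peaks rose in the nucleus relative to the cytoplasm by 0.310 percentage points (p = 0.005, exact permutation), and the CDS part of CDS and 3'UTR tags moved by -2.27 points (p = 0.005, exact permutation). Among single CDS peaks the difference of the log2 effects was 2.22 for RPL23 (adjusted p = 6.11e-06), 2.63 for HSP90AA1 (adjusted p = 0.000534), 1.07 for the highest AFP peak (adjusted p = 3.39e-20), 1.93 for the second FLVCR1 peak (adjusted p = 0.0295) and 1.77 for the APOB peak at chr2:21007166-21007186 (adjusted p = 0.0328), all by limma. The limma p of the AFP peak is far below its edgeR value (adjusted p = 0.133). The FLVCR1 and APOB peaks did not pass edgeR either, so only RPL23 and HSP90AA1 passed both. At the FLVCR1 peak the cytoplasm went from 3.19, 4.07 and 6.33 CPM to 0.722, 0 and 0 CPM, and the nucleus from 0, 0.909 and 1.93 CPM to 2.40, 2.40 and 1.73 CPM. At the APOB peak the cytoplasm went from 2.13, 4.07 and 5.27 CPM to 0, 0 and 0.696 CPM, and the nucleus from 0 in all 3 libraries to 1.60, 1.60 and 0 CPM. The cause of these differences was not tested.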

How the results depend on the processing

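Fold changes of the 142 named results kept their direction under all 1707 alternatives run (edgeR, other pseudocounts, no filter, scaling to tags in peaks, the replicate block and single libraries left out), and 1222 of these kept the call. Named results were picked as the largest differences, and named peaks also for groups that do not overlap. Their direction could therefore hardly reverse, so keeping it shows little about stability. With 1 library left out at a time, the call was lost in 398 of 882 such fits, and 35 results kept their call throughout. Of 272 alternative settings of the 19 share results 250 kept direction and side of the threshold and 20 reversed. The nuclear minus cytoplasmic share with arsenite, 0.0243 points, was -0.0020 as a percentage of the library total and -0.0479 from CDS peaks without an intron label, and its CDS part of CDS and 3'UTR tags was -0.0126 without that label. The NLS minus NES enriched mock share, -0.0515, was 0.0157 over the library total, 0.0209 without the 10 CDS peaks with the most tags and 0.0082 with indistinguishable pairs counted once. The setting without intron-labelled peaks was added after seeing the data, for shares too. There G3BP minus NES enriched mock was -0.0791, arsenite in NLS enriched -0.0105, and NLS enriched minus input -0.0566, which then passed. NES enriched minus input was -0.0417 over the library total and -0.0161 without the 10 peaks, and G3BP enriched minus input was -0.0161 over the library total.

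The counts of called CDS peaks moved with the settings. With a pseudocount 4 times smaller they were 29 (mock fractions), 6 (arsenite fractions, 3 each way), 37 (arsenite in the cytoplasm, 20 higher and 17 lower), 1 (arsenite in the nucleus) and 2 (NLS minus NES enriched mock). Without a filter they were 82, 32 and 8 for mock fractions, arsenite fractions and arsenite in the nucleus, and 1 for G3BP minus NES enriched arsenite. EdgeR gave 36 for arsenite fractions, 24 for arsenite in the cytoplasm, 3 for the difference of arsenite effects and 5 in inputs. Scaling to tags in peaks gave 2 for NLS minus NES enriched mock. Ratio counts, in the order mock fractions, arsenite fractions, arsenite in the cytoplasm and arsenite in the nucleus, were 179, 36, 43 and 1 with the smaller pseudocount. A pseudocount 4 times larger gave 207, 285 and 168 for the last 3. Without a filter they were 656 for mock fractions and 268 for the cytoplasm. The following ratio settings were added after seeing the data: 109, 47, 21 and 0 with edgeR, 10, 7, 5 and 2 for genes of 10 CPM or more, and 110, 32, 99 and 17 without intron-labelled peaks.

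Leaving out 1 library at a time, called CDS peaks ranged from 0 to 115 (mock fractions), 0 to 2 (arsenite fractions), 0 to 75 (cytoplasm), 0 to 81 (nucleus), 3 to 6 (difference of effects) and 0 to 3 (NLS minus NES enriched mock). Gene sums ranged from 64 to 115, 4 to 39, 3 to 41 and 0 to 8, and ratios from 339 to 469, 73 to 129, 109 to 228 and 0 to 126, each in the same order of the first 4. Shares ranged from -0.131 to 0.0749 for NLS minus NES enriched mock, -0.0469 to 0.308 for G3BP minus NES enriched arsenite, -0.0097 to 0.0514 for arsenite in NLS enriched, -0.1555 to -0.0965 for NLS and -0.0667 to 0.0857 for NES enriched minus input.

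Whether the replicate numbers pair samples could not be settled. With the replicate block the peak counts were 46, 7, 22, 3 and 6 (the last for the difference of effects), so that the block moved the count for arsenite fractions by over 1.5 times. Depth limits most single peaks, since the median CDS peak held 10 tags over all libraries, and in the enriched libraries a difference at a single CDS peak was mostly not detectable.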
